A study of Mus musculus with 9 samples.

Results

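The transcript levels of 10 genes that mark retinal ganglion cells were followed in mouse retinas after laser-induced retinal vein occlusion (RVO). The genes were Rbpms, Pou4f1, Pou4f2, Thy1, Slc17a6, Sncg, Nefl, Nefm, Nefh and Tubb3, and they were taken by symbol from a table of 48679 names. All 10 were listed, and all 10 passed the filter on low counts in each comparison, with 61 counts as the lowest value (Pou4f2 in the RVO replicate 3). The data comprised 9 samples, each a pool of 6 retinas of C57BL/6J mice aged 12 weeks, so that n counts pools and not mice. RVO retinas (n = 3) came from eyes in which every large vein had been occluded with a laser of 50 mW and a 50 µm spot. Control retinas (n = 3) came from the other eye of such mice, which received as many laser burns between the large vessels. Laser-treated mice had received 200 mg/kg eosin Y, a dye that enhances the laser effect, and their retinas were taken 2 days after the laser. Untreated retinas (n = 3) came from eyes without laser. RVO and control eyes thus shared the laser burns, which the untreated eyes lacked. Whether the mice of the untreated eyes received the dye is not given separately in the sources used here. Those eyes formed the d0 group of the study, and the RVO and control comparisons against untreated eyes used the same 3 untreated pools.

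Ganglion cells are the output neurons of the retina. Their bodies lie in the innermost cell layer, close to the vessels of the inner retina, and their axons run through the nerve fibre layer into the optic nerve. Long axons are filled with neurofilaments, which are polymers of a light, a medium and a heavy subunit, and with microtubules built from tubulins. After axon injury, ganglion cells are known to lower many of the genes that define them and to switch on genes of a regeneration and stress program. In whole retina, the level of a gene is a share of all counts of a sample. A lower share can come from fewer ganglion cells, from less RNA per cell or from a larger share of other transcripts. These cannot be told apart here.

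Of the 10 genes, 5 had an entry in the RefSeq promoter table (build GRCm38.p6), namely Pou4f1, Pou4f2, Sncg, Slc17a6 and Tubb3. The bases just before the start of 3 of them are printed 5′ to 3′ on the strand of the gene: the related factors Pou4f1 and Pou4f2, whose levels moved together, and Tubb3, which moved differently from the other 9 genes. Capitals mark GC boxes, that is GGGCGG or its reverse complement. The stretch for Pou4f1 is chr14:104468000-104468249 (minus strand), that for Pou4f2 is chr8:78436648-78436897 (minus strand), and that for Tubb3 is chr8:123411303-123411423 (plus strand, ended where the GENCODE gene begins).
Pou4f1: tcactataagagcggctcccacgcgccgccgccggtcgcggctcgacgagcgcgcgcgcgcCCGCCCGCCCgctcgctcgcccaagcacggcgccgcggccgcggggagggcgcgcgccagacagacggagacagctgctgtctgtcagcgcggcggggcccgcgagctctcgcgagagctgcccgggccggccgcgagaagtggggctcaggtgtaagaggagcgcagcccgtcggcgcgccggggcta
Pou4f2: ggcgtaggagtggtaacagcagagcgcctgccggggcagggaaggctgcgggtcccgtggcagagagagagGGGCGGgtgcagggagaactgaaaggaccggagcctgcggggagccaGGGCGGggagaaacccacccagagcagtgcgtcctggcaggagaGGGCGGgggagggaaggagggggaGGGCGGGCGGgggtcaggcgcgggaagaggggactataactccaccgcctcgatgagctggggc
Tubb3: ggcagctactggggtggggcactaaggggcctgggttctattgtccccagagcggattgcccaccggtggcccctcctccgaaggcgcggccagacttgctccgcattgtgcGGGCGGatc

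In the 250 bases before each start, 5 of the 5 genes with an entry had a GC box on either strand, against 32.74% of 32851 mouse promoters of the same length. Pou4f2 had 5 such matches, 2 of which overlapped, Pou4f1 had 2 that overlapped, Tubb3 had 2, and Sncg had 1. Slc17a6 had 1 at one of its 2 listed starts. The TATA box TATAAA, found in 12.37% of promoters, the cAMP response element TGACGTCA (1.546%) and the hypoxia response core ACGTG (16.57%) were not found in these windows on either strand. The homeodomain core TAATTA (4.84% of promoters) was found before the second start of Slc17a6. These matches describe letters and not bound sites. Pou4f1 and Pou4f2 windows consisted of 78% and 70.8% G and C, against a median of 52.4% over the promoters.

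Samples held between 12377572 and 28993921 counts, with fewer in untreated pools (at most 15245869) than in the others (at least 18897218). Values per sample are given as CPM, the counts of the gene in 1e6 counts of the sample after scaling by edgeR's TMM factors, and their error as SD over the 3 pools. Differences are log2 fold changes with their standard errors (SE) from edgeR's quasi-likelihood test, and a gene was called at a Benjamini-Hochberg adjusted p under 0.01 over all genes tested, the threshold used by the study. The retinal origin of the samples showed in the rod genes, with Gnat1, the rod transducin subunit, at 11020 to 26025 CPM in the group means. Among the RVO pools, replicate 2 stood apart: it had the highest level of the RVO pools for 10 of 10 ganglion cell genes. Replicate 1 had the lowest level for 9 genes, and replicate 3 for Rbpms. RNA of the lens, measured as the sum of 6 lens genes such as the crystallin gene Cryaa, varied widely between the laser-treated pools, from 121 to 3359 CPM in RVO (highest in replicate 2), from 135 to 1889 CPM in control and from 2.36 to 18.5 CPM in untreated pools. Its part in the results was not tested.

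Of the 10 genes, 9 were lower in RVO than in untreated retinas, by 1.81-fold for Nefh up to 3.86-fold for Sncg, and 0 were higher. Among all 16380 genes tested, 24.6% were called lower, 27.4% higher and 52.1% in either direction. The median log2 fold change of the 10 genes was -1.50, against 0.01 over all genes. The exception was Tubb3. After the control laser, 7 of the 10 genes were lower than in untreated retinas and 1, Tubb3, was higher, where 25.2% of 16066 genes were called lower, 27.2% higher and 52.4% in either direction. The median of the 10 genes was -0.42 in that comparison, against 0.01 over all genes. In 1 fit of all 9 samples, which share 1 estimate of the spread, 2 genes were called lower after the control laser, Rbpms and Nefh, and the edgeR adjusted p was 0.119 for Pou4f1, 0.0418 for Pou4f2, 0.426 for Nefl, 0.176 for Sncg and 0.0300 for Slc17a6, at fold changes of -0.72 to -0.25. That fit called 6400 of all genes in either direction after the control laser, against 8416 in the pairwise fit. Between RVO and control retinas, only Nefh passed the threshold in the pairwise fit. There, 10 of 10 genes had an adjusted p under 0.05 and lower values in RVO. The fit of all 9 samples called 10 genes lower in RVO than in control retinas, and DESeq2 called 9. All-gene shares for these 2 alternatives are not reported here. In this comparison 0.634% of 16874 genes were called lower and 2.7% higher at 0.01 (3.34% in either direction), and 17.1% were called lower at 0.05. The median of the 10 genes was -1.26, against 0.02 over all genes.

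The calls between RVO and control retinas changed when single pools were left out. Without RVO replicate 2, 10 of 10 genes were called lower in RVO than in control retinas, at log2 fold changes from -2.05 (Sncg and Nefm) to -0.51 (Nefh). The share of all genes called lower in that fit is not reported here, so the count is not read as particular to these 10 genes. Without any other single pool, 0 genes were called, and the number of all genes called at 0.01 in those fits lay between 0 and 29, with 6100 to 6916 genes at an unadjusted p under 0.05. The log2 fold changes stayed below 0 for 10 of 10 genes in each of these fits, and that of Nefh stayed between -0.51 and -0.45. CPM of the RVO and control pools did not overlap for 10 of 10 genes, as for 52.5% of all genes tested. Those of RVO and untreated pools did not overlap for 9 genes (73.4% of all genes), and those of control and untreated pools for 9 genes (70% of all genes).

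**Figure D1:**
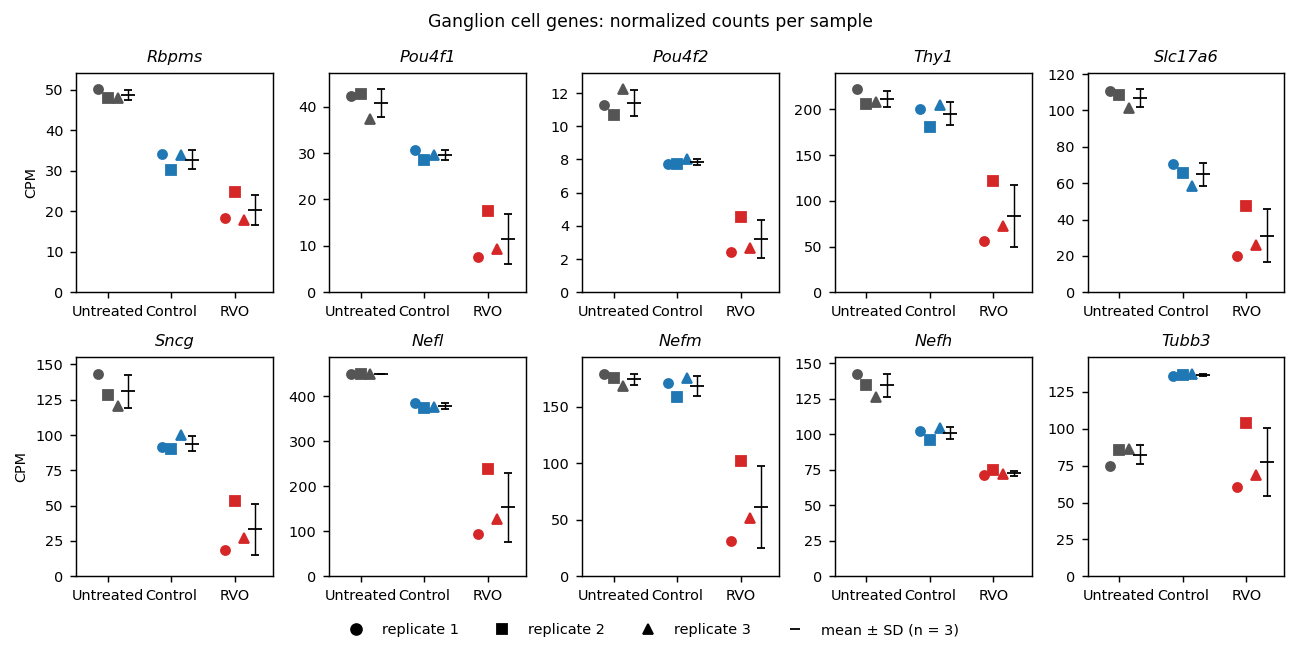
Normalized counts (CPM, linear axes from 0) of the 10 ganglion cell genes in the 9 samples, by group, with each pool as 1 point and its replicate number as the shape; the bar is the mean ± SD (n = 3). The RVO pools lie below the control pools for 10 of 10 genes, RVO replicate 2 (square) is the highest RVO pool in each panel, and Tubb3 is the gene with its highest levels in control pools.

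Rbpms encodes an RNA-binding protein that is used as a general marker of ganglion cells (chr8:33782643-33929863, minus strand, GRCm38). It had 50.0, 48.0 and 48.0 CPM in the untreated pools, 34.2, 30.1 and 33.9 CPM in the control pools and 18.3, 24.6 and 17.9 CPM in the RVO pools, replicates 1 to 3 in each case. The 3 groups did not overlap, with untreated retinas highest and RVO retinas lowest. Rbpms fell in RVO against untreated retinas by 1.23 on the log2 scale (SE 0.13, edgeR adjusted p = 1.01e-04) and in control against untreated retinas by 0.55 (SE 0.07, adjusted p = 1.91e-05). Its difference between RVO and control was -0.69 (SE 0.13, adjusted p = 0.0130).

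Pou4f1 and Pou4f2 encode Brn3a and Brn3b, POU-homeodomain transcription factors that establish and maintain ganglion cell identity. Pou4f1 (chr14:104461676-104467999, minus strand) stood at 42.2, 42.7 and 37.4 CPM in untreated, 30.7, 28.5 and 29.6 CPM in control and 7.55, 17.5 and 9.32 CPM in RVO pools. RVO replicate 2 was thus 2.32-fold above RVO replicate 1 and still below every control pool. Pou4f1 fell by 1.81 on the log2 scale in RVO against untreated retinas (SE 0.28, edgeR adjusted p = 6.54e-04) and by 0.44 in control against untreated retinas (SE 0.08, adjusted p = 2.15e-04). Pou4f2 (chr8:78433010-78436645, minus strand) was the least abundant of the 10 genes, with 11.3, 10.7 and 12.2 CPM in untreated, 7.73, 7.73 and 8.03 CPM in control and 2.42, 4.54 and 2.68 CPM in RVO pools. Its groups did not overlap either. It fell by 1.80 in RVO (SE 0.24, edgeR adjusted p = 3.40e-04) and by 0.52 in control retinas (SE 0.11, adjusted p = 9.48e-04) against untreated ones. Between RVO and control, the log2 differences were -1.37 for Pou4f1 (SE 0.28, edgeR adjusted p = 0.0136) and -1.29 for Pou4f2 (SE 0.24, adjusted p = 0.0125). The ratio of Pou4f1 to Pou4f2 per kb of exon was 2.47 ± 0.33 in untreated, 2.59 ± 0.11 in control and 2.39 ± 0.25 in RVO pools (SD, n = 3), with overlapping groups in all 3 comparisons.

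Thy1 encodes a GPI-anchored surface protein that is abundant on ganglion cells but also present on T cells and fibroblasts (chr9:44043384-44048579, plus strand). Its levels were 222, 205 and 208 CPM in untreated, 200.3, 181 and 205 CPM in control and 56.1, 122 and 72.5 CPM in RVO pools. Control pools lay just under the untreated pools, whereas RVO pools lay well under both. Thy1 fell by 1.32 in RVO against untreated retinas (SE 0.24, edgeR adjusted p = 0.00167). Its log2 difference between control and untreated retinas was -0.10 (95% interval -0.23 to 0.03, edgeR adjusted p = 0.166) and that between RVO and control -1.23 (SE 0.25, adjusted p = 0.0140). T cell genes were near 0, with Cd3e at 0.0753 CPM and Cd3g at 0.0779 CPM in the RVO means and Lck, at 3.46 CPM, as the 1 of 7 T cell genes that could be tested against untreated retinas (log2 fold change 1.94, edgeR adjusted p = 0.00206). Of 6 fibroblast genes, 4 rose and 0 fell in RVO against untreated retinas, and their sum was 58.0 to 72.2 CPM in RVO, 29.8 to 39.5 CPM in control and 25.1 to 30.9 CPM in untreated pools. In control against untreated retinas, 2 of 5 fibroblast genes tested rose and 0 fell, and Pdgfra did not pass the test in either comparison (log2 differences of -0.27 and -0.40). Of all genes, 27.4% were called higher in RVO and 27.2% in control against untreated retinas.

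Slc17a6 encodes VGLUT2, the transporter that loads glutamate into the synaptic vesicles of ganglion cells (chr7:51622006-51671119, plus strand). It had 110.5, 108 and 101 CPM in untreated, 70.6, 65.7 and 58.2 CPM in control and 19.8, 47.6 and 26.1 CPM in RVO pools. Of the 10 genes, it had the lowest log2 fold change after the control laser, where it fell by 0.70 against untreated retinas (SE 0.07, edgeR adjusted p = 2.87e-06). In RVO against untreated retinas it fell by 1.75 (SE 0.28, adjusted p = 7.99e-04 by edgeR). Between RVO and control retinas, the difference was -1.06 (SE 0.29, edgeR adjusted p = 0.0280).

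Sncg encodes γ-synuclein, a small protein of ganglion cell bodies and axons (chr14:34370274-34374789, minus strand). It had 144, 129 and 120 CPM in untreated, 91.6, 90.3 and 99.9 CPM in control and 18.8, 53.6 and 27.4 CPM in RVO pools. The 3 groups did not overlap, and the RVO pools differed among themselves by 2.86-fold. Its fold change in RVO against untreated retinas was the largest of the 10 genes, a fall of 1.95 on the log2 scale (95% interval -2.71 to -1.19, edgeR adjusted p = 0.00109), at percentile 2.33 of all genes tested counted from the lowest. In control against untreated retinas Sncg fell by 0.46 (SE 0.07, edgeR adjusted p = 7.10e-05). Between RVO and control retinas its difference was -1.50 (SE 0.33, edgeR adjusted p = 0.0163).

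Of the 3 neurofilament subunits, Nefl and Nefm had similar fold changes in RVO retinas, and those of Nefh were smaller. Nefl, the light subunit that forms the core of the filament (chr14:68083863-68089095, plus strand), had 450, 450 and 450 CPM in untreated, 384, 374 and 375 CPM in control and 93.7, 238 and 126 CPM in RVO pools. It fell by 1.53 in RVO (SE 0.29, edgeR adjusted p = 0.00196) and by 0.23 in control retinas (SE 0.05, adjusted p = 0.00142) against untreated ones. The Nefl levels of the untreated and control pools were nearly alike within each group, with a CV of 0.0293% in untreated and 1.49% in control pools. The untreated pools held 4954, 5757 and 6301 Nefl counts. Random sampling of that many reads alone gives a CV above 0.0293%, so this value is not read as likeness of the pools.

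Nefm, the medium subunit (chr14:68082590-68124846, minus strand), had 179, 175 and 168 CPM in untreated, 171, 159 and 176 CPM in control and 31.5, 102 and 51.1 CPM in RVO pools. Control and untreated pools overlapped, and the RVO pools lay below both but differed among themselves by 3.22-fold, the widest spread of the 10 genes. Nefm fell by 1.48 in RVO against untreated retinas (SE 0.35, edgeR adjusted p = 0.00611), and its log2 difference between control and untreated retinas was -0.03 (95% interval -0.15 to 0.09, adjusted p = 0.659). Without RVO replicate 3 or any 1 of the untreated pools, the edgeR adjusted p for Nefm in RVO against untreated retinas was 0.0210 to 0.0289, and without RVO replicate 3 that for Nefl was 0.0112. Between RVO and control, the differences were -1.31 for Nefl (SE 0.30, edgeR adjusted p = 0.0176) and -1.46 for Nefm (SE 0.37, adjusted p = 0.0223).

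Nefl and Nefm are neighbours on opposite strands. In GENCODE vM21 the span of Nefm contains Nefl, and their exons share 1108 bases (chr14:68083863-68084970), which is 32.8% of the exon bases of Nefl and 19.2% of those of Nefm. The kit marked the strand, but whether counting used it is not given in the sources used here, so reads of this stretch could have been assigned to either gene or dropped. No other gene shared exon bases with any of the 10.

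Nefh, the heavy subunit that carries the long phosphorylated side arms of the filament (chr11:4938754-4948064, minus strand), had 143, 134 and 126 CPM in untreated, 102, 95.7 and 104 CPM in control and 71.3, 74.7 and 71.9 CPM in RVO pools. The groups did not overlap, and the RVO pools differed by only 1.05-fold, a CV of 2.45%, where the other 9 genes had CVs of 18.7% to 58.8% in the same pools. Nefh fell by 0.86 in RVO against untreated retinas (SE 0.07, edgeR adjusted p = 4.07e-05) and by 0.40 in control against untreated retinas (SE 0.06, adjusted p = 6.67e-05). It was the 1 gene that fell in RVO against control retinas at the threshold of 0.01, by 0.47 (SE 0.06, edgeR adjusted p = 0.00817), and this difference was the smallest of the 10 genes in that comparison. The call was lost without any 1 of the pools other than RVO replicate 2, as given above.

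Tubb3 encodes class III β-tubulin, a neuronal tubulin of axons and dendrites that is widely used to stain ganglion cells (chr8:123411424-123422015, plus strand). It had 74.9, 85.9 and 86.6 CPM in untreated, 136, 136 and 138 CPM in control and 60.5, 104 and 68.6 CPM in RVO pools. Control pools were above all others, while untreated and RVO pools overlapped. Tubb3 rose by 0.75 on the log2 scale in control against untreated retinas (SE 0.06, edgeR adjusted p = 5.72e-07), which is 1.68-fold. Its log2 difference between RVO and untreated retinas was -0.06 (95% interval -0.48 to 0.37, edgeR adjusted p = 0.794). Without RVO replicate 2 that difference was -0.31, with an adjusted p of 0.00513 by edgeR. Between RVO and control retinas it was -0.81 (SE 0.18, edgeR adjusted p = 0.0165), lower in 3 of 3 RVO pools than in any control pool.

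**Figure D2:**
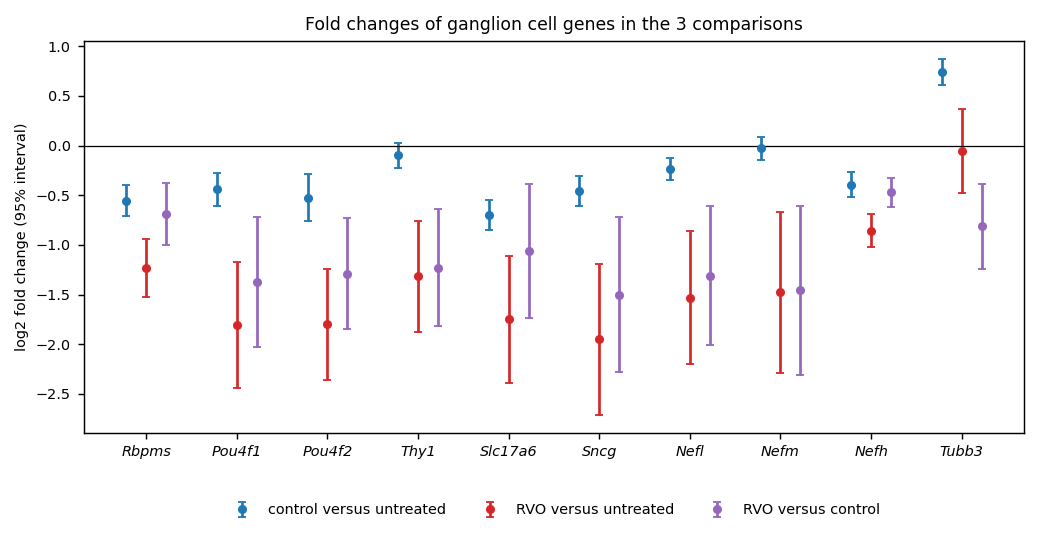
Log2 fold changes of the 10 ganglion cell genes in control against untreated (blue), RVO against untreated (red) and RVO against control retinas (purple); points are estimates and lines their 95% intervals from edgeR. Nefh has the shortest red and purple intervals, and Tubb3 has its blue point at 0.75, above 0, while the blue points of the other 9 genes lie between -0.70 and -0.03.

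Levels of different genes were compared per kb of exon, where CPM was divided by the length of all exons of a gene merged. That length covers every annotated transcript (15 for Rbpms, 1 to 6 for the others), and which of them were expressed was not measured. The order of the genes depends on this length, and the SD over pools does not cover it. In untreated retinas, Sncg (154 ± 13.8 CPM per kb, SD, n = 3) and Nefl (133 ± 0.0390) were highest, followed by Thy1 (70.8 ± 2.92), Tubb3 (44.2 ± 3.51), Nefh (33.7 ± 2.08), Nefm (30.1 ± 0.910) and Slc17a6 (19.8 ± 0.894). The identity genes were lowest, with 8.73 ± 0.627 for Pou4f1, 7.42 ± 0.180 for Rbpms and 3.56 ± 0.238 for Pou4f2. The pools of neighbours in this order did not overlap in untreated retinas. In control retinas Nefl (112 ± 1.66) and Sncg (110 ± 6.14) overlapped at the top and Tubb3 (73.2 ± 0.420) was above Thy1 (65.3 ± 4.18). The other 6 genes lay between 2.44 (Pou4f2) and 29.1 CPM per kb (Nefm). In RVO retinas Nefl (45.2 ± 22.4), Tubb3 (41.6 ± 12.4), Sncg (39.0 ± 21.3), Thy1 (27.8 ± 11.4) and Nefh (18.2 ± 0.445) followed each other, and the pools of each of the first 3 overlapped with those of the next, whereas Thy1 and Nefh did not overlap. The other 5 genes lay between 1.00 (Pou4f2) and 10.6 CPM per kb (Nefm).

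Ratios between the genes within a sample do not depend on how libraries are scaled. Of the 12 ratios computed, 9 were to Rbpms. With 3 pools against 3 an exact two-sided permutation test cannot go below p = 0.1, and the smallest p adjusted over the 36 tests was 0.18, so the ratios are described by their ranges. Groups did not overlap for 6 ratios between RVO and untreated, 7 between control and untreated and 7 between RVO and control pools. No such share was computed for ratios of other genes, and 9 of the 12 ratios share Rbpms, so these counts are descriptive only. The ratio of Tubb3 to Rbpms was 5.25 to 6.33 in untreated pools, 14.0 to 15.9 in control and 11.6 to 14.8 in RVO pools, so that both laser-treated groups lay above the untreated one and overlapped with each other. The ratio of Sncg to Rbpms was 19.3 to 22.1 in untreated, 20.6 to 23.1 in control and 7.90 to 16.8 in RVO pools, and that of Pou4f1 to Rbpms was 1.09 to 1.25, 1.23 to 1.33 and 0.579 to 0.999 in the same order. For both, RVO pools lay below the other groups. Nefh relative to Nefl was 0.237 to 0.269 in untreated and 0.217 to 0.235 in control pools, and it was 0.644, 0.266 and 0.482 in RVO replicates 1 to 3. RVO replicate 2, with its less reduced Nefl, thus had an untreated-like ratio, while the other RVO pools had more Nefh for their Nefl. Nefm relative to Nefl was 0.226 ± 0.00690 in untreated, 0.260 ± 0.0128 in control and 0.228 ± 0.0275 in RVO pools (SD, n = 3).

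**Figure D3:**
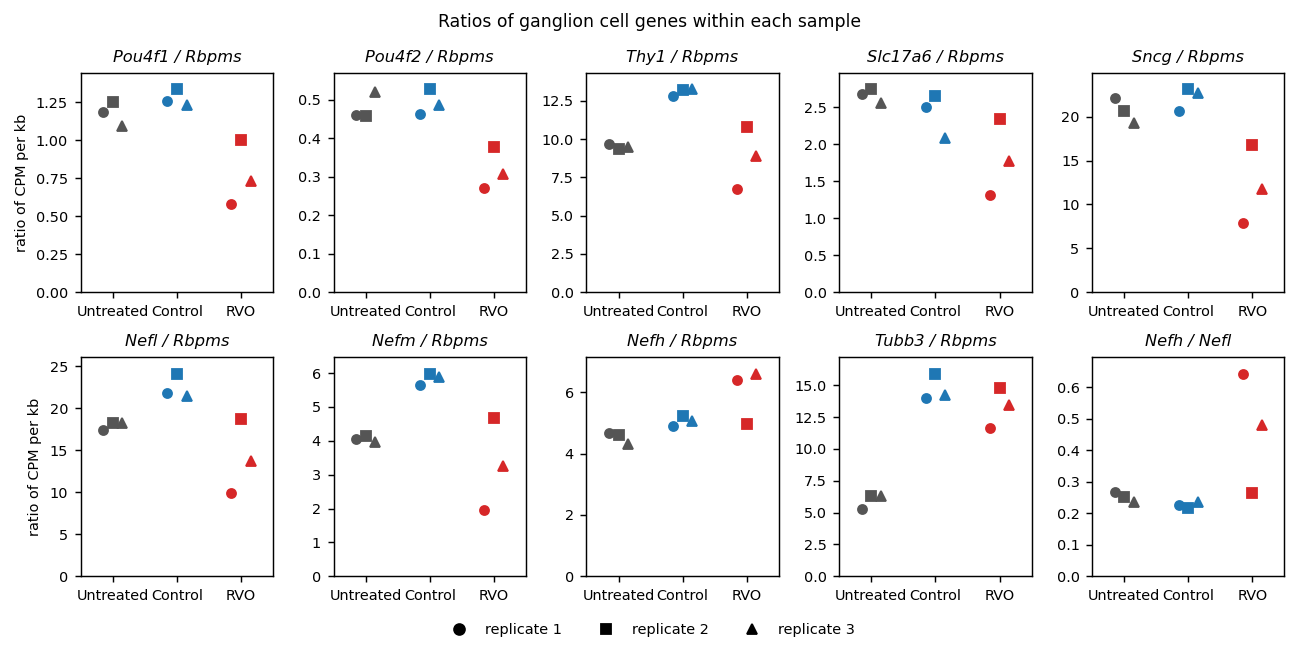
Ratios of CPM per kb of exon within each sample (linear axes from 0): 9 genes relative to Rbpms and, at the lower right, Nefh relative to Nefl; each point is 1 pool and the shape its replicate number. Tubb3 relative to Rbpms is above 11 in the 6 laser-treated pools and below 7 in the untreated pools, and Nefh relative to Nefl is spread from 0.266 to 0.644 in RVO pools.

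Among 12 further genes enriched in ganglion cells, 10 fell and 0 rose in RVO against untreated retinas, and the median log2 fold change was -1.41. In control against untreated retinas, 7 were lower and 2 higher (median -0.41). In RVO against control retinas 1 was lower at 0.01 and 10 at 0.05 (median -1.15). The 1 gene was Pou4f3, named after its values were seen. Of all genes, 24.6%, 25.2% and 0.634% were called lower at 0.01 in these comparisons, and 17.1% in the last at 0.05. Those called higher at 0.01 were 27.4%, 27.2% and 2.7%. Chrna6 and Chrnb3, subunits of nicotinic acetylcholine receptors, had log2 fold changes of -2.58 and -2.37 in RVO and of -0.74 and -0.70 in control retinas against untreated ones, and both were called in both comparisons. Stmn2, a regulator of axonal microtubules, fell too, with -1.32 and -0.37. Tppp3, a tubulin-binding protein, rose by 0.88 after the control laser and differed by 0.24 in RVO against untreated retinas (edgeR adjusted p = 0.389). The other gene that rose in control retinas was Gap43, a growth cone protein (0.30, edgeR adjusted p = 0.00844), named after its values were seen.

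Of 13 genes of ganglion cell subtypes, 6 were lower and 2 higher in RVO than in untreated retinas (median -1.06), beside 24.6% and 27.4% of all genes. After the control laser 5 were lower and 3 higher than in untreated retinas (median -0.46), beside 25.2% and 27.2% of all genes. In RVO against control retinas 0 were lower and 1 higher (median -0.63), beside 0.634% and 2.7% of all genes. Jam2, an adhesion molecule known from J-type ganglion cells and from vessels, fell in RVO and control retinas (-1.09 and -0.75), and Cartpt, a neuropeptide gene of direction-selective ganglion cells, fell by 1.16 in RVO retinas. The 2 that rose were Spp1 and Kcng4, both known from α-type ganglion cells. Kcng4, a potassium channel subunit, had 24.3 ± 0.57 CPM in untreated, 55.7 ± 5.4 CPM in control and 63.9 ± 4.8 CPM in RVO retinas (SD, n = 3) and rose by 1.42 and 1.21 in RVO and control retinas (edgeR adjusted p = 1.04e-05 and 2.05e-07). Spp1, which encodes osteopontin and is also made by macrophages and activated microglia, rose by 2.70 and 1.56 and was the subtype gene that was also higher in RVO than in control retinas (1.13, edgeR adjusted p = 0.00672).

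Relatives of the 10 genes from the same families included genes called in both directions. Of 14 relatives, 5 were lower and 5 higher in RVO than in untreated retinas (median -0.10), beside 24.6% and 27.4% of all genes tested. After the control laser 5 were lower and 6 higher than in untreated retinas (median 0.03), beside 25.2% and 27.2%. In RVO against control retinas 1 was lower and 2 were higher (median -0.38), beside 0.634% and 2.7% of all genes. The most abundant relatives were Slc17a7, the vesicular glutamate transporter of photoreceptors and bipolar cells (log2 difference -0.29 in RVO against untreated retinas, edgeR adjusted p = 0.0154), the tubulin Tubb5 (1.42, adjusted p = 7.11e-06), the synuclein Sncb (-0.24, adjusted p = 0.0247) and the tubulin Tubb4a (-1.77, adjusted p = 0.00177). The other relatives given here are named after their values were seen. Pou4f3, the third Brn3 factor, Rbpms2 and the neurofilament partner Ina also fell, with log2 fold changes from -1.86 to -1.22. Those that rose beside Tubb5 were the tubulins Tubb2b, Tubb4b and Tubb6 and Prph, an intermediate filament protein of injured and peripheral neurons.

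The tubulins and intermediate filament genes thus included genes that fell and genes that rose. Tubb6 had 4.78 ± 1.1 CPM in untreated, 22.9 ± 2.7 CPM in control and 93.6 ± 26 CPM in RVO retinas (SD, n = 3), and Tubb2b had 5.57 ± 0.13, 36.3 ± 5.3 and 38.2 ± 5.1 CPM. Tubb2a, like Tubb3, was highest in control retinas, with 71.4 ± 4.3 CPM in untreated, 116 ± 2.2 CPM in control and 71.9 ± 24 CPM in RVO retinas. Tubulin genes have near-identical coding sequences, and how reads matching several genes were counted is not given in the sources used here, so their values, that of Tubb3 included, are less certain than those of the other genes. Prph had 4.64 ± 0.22, 14.2 ± 2.6 and 10.5 ± 0.58 CPM in untreated, control and RVO retinas, whereas Ina had 143 ± 7.3, 106 ± 5.4 and 52.8 ± 17 CPM.

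Of 15 genes of the axonal cytoskeleton, 10 were lower and 2 higher in RVO than in untreated retinas (median -0.69), 6 were lower and 4 higher in control than in untreated retinas (median -0.01), and 1 was lower and 0 higher in RVO than in control retinas (median -0.69). Of all genes tested, 24.6%, 25.2% and 0.634% were called lower in these comparisons and 27.4%, 27.2% and 2.7% higher. Map1b and Map2, microtubule-associated proteins of axons and dendrites, fell in RVO (-0.38 and -1.04) and in control retinas (-0.39 and -0.72) against untreated ones. Kif5a, a kinesin motor that carries neurofilaments along axons, fell in RVO against untreated (-0.69) and against control retinas (-0.59) (edgeR adjusted p = 6.08e-05 and 0.00679). The log2 difference of Dpysl3, a collapsin response mediator, was 0.19 in RVO against untreated retinas (edgeR adjusted p = 0.0296).

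Most of the listed genes known to rise in injured ganglion cells were higher in both laser-treated groups. Of 8 such genes, 7 rose and 0 fell in RVO against untreated retinas (median 2.46), 7 rose and 0 fell in control against untreated retinas (median 1.57), and 3 rose and 0 fell in RVO against control retinas (median 1.22). Among all genes tested, 27.4%, 27.2% and 2.7% were called higher in these comparisons. Gap43 did not pass in RVO against untreated retinas (log2 difference 0.12, edgeR adjusted p = 0.361). Sox11, named after its values were seen, did not pass in control against untreated retinas (0.24, edgeR adjusted p = 0.242). The first 2 medians were the same with Sprr1a at its lower bound. The list is no independent evidence of this direction, since Ecel1 and Sprr1a were listed by the study from these samples. Jun and Atf3, transcription factors of the axon injury response, rose by 2.43 and 3.54 in RVO and by 1.14 and 2.16 in control retinas against untreated ones, and by 1.28 and 1.37 in RVO against control retinas. Ddit3, a factor of the stress response that precedes cell death, rose by 1.45 in RVO and 0.28 in control retinas against untreated ones. Sprr1a, named after its values were seen, had 0 counts in the untreated pools. Set against a floor of 3 counts over these pools, it was at least 97.8-fold higher in the RVO group, and for the control group the bound was 24.0-fold. These genes are also expressed by other retinal cells, and which cells the transcripts came from was not measured.

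Markers of other retinal neurons were lower in RVO retinas too. In RVO against untreated retinas, 8 of 10 amacrine cell genes were lower (median -1.24), 3 of 4 horizontal cell genes (median -2.32), 6 of 7 bipolar cell genes (median -1.78), 4 of 5 cone genes (median -1.74) and 6 of 6 rod genes (median -0.93), and 0 genes of these lists were higher. In control against untreated retinas, the medians of these lists were -0.29, -0.54, -0.41, -0.66 and -0.44, with 6, 1, 4, 4 and 4 genes called lower. There, 4 genes of these lists were called higher, named after their values were seen: the amacrine cell genes Slc32a1 (0.70) and Slc18a3 (1.10), the bipolar cell gene Pcp2 (0.28) and the cone gene Pde6h (0.46). In RVO against control retinas the medians were -1.01, -1.73, -1.67, -1.09 and -0.47, with 0, 0, 1, 0 and 2 genes called lower. Among all genes, 24.6%, 25.2% and 0.634% were called lower in RVO against untreated, control against untreated and RVO against control retinas. Those called higher were 27.4%, 27.2% and 2.7%. Calb2 and Gad1, amacrine cell genes for calretinin and the GABA-synthesizing enzyme, had log2 fold changes of -1.64 and -1.33 in RVO against untreated retinas. Prkca, the kinase of rod bipolar cells, stood at -1.47, and Calb1, the calbindin of horizontal cells, at -2.83, all of them called. Of 6 Mueller cell genes, 4 were lower as well (median -1.08), among them Glul, the glutamine synthetase (-1.96).

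The sum of the 10 ganglion cell genes was 1359 to 1426 CPM in untreated, 1168 to 1228 CPM in control and 380 to 787 CPM in RVO pools. Divided by the sum of the 10 amacrine cell genes, it was 1.10 to 1.13 in untreated, 1.17 to 1.20 in control and 1.11 to 1.19 in RVO pools, so that ganglion and amacrine sums had nearly the same proportion in all 9 samples, RVO replicate 2 included. Which cells the transcripts of either list came from was not measured, so the proportion describes the lists and not cell numbers. Divided by the sum of the 7 bipolar cell genes, the ganglion sum was 1.26 to 1.32 in untreated, 1.46 to 1.57 in control and 1.44 to 1.47 in RVO pools. Divided by the sum of the 4 horizontal cell genes, it was 9.87 to 10.7, 15.0 to 16.0 and 20.2 to 56.5 in untreated, control and RVO pools. Divided by that of the rod genes, it was 0.0165 to 0.0175, 0.0193 to 0.0226 and 0.00879 to 0.0173.

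**Figure D4:**
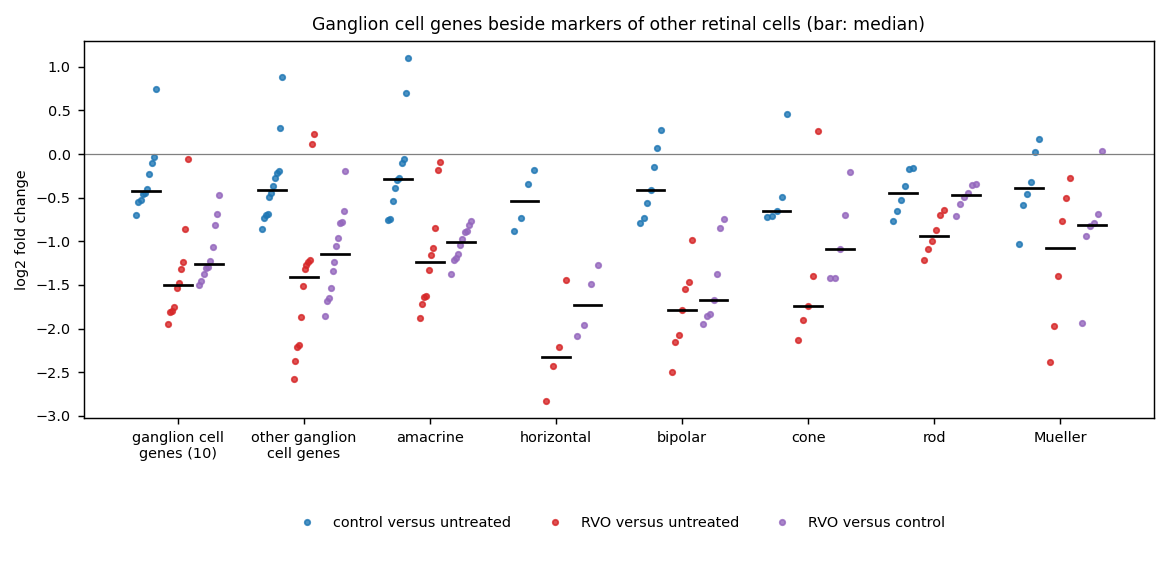
Log2 fold changes of the 10 ganglion cell genes, 12 other ganglion cell genes and markers of 6 other retinal cell types in control against untreated (blue), RVO against untreated (red) and RVO against control retinas (purple); each point is 1 gene and the bar the median of its list. The red medians lie between -2.32 (horizontal) and -0.93 (rod), with the ganglion cell genes at -1.50.

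Some of the 10 genes are also expressed outside ganglion cells, Rbpms for instance in smooth muscle and pericytes. Of 7 markers of those cells, 6 could be tested, and 2 were higher (Acta2 and Tagln, contractile proteins) and 1 was lower (Rgs5, of pericytes) in RVO than in untreated retinas. Their sum was 80.3 to 155 CPM in RVO, 99.6 to 122 CPM in control and 90.0 to 104 CPM in untreated pools, a range in which the groups overlapped. Genes of oligodendrocytes, which myelinate ganglion cell axons in the optic nerve, were measured as well. Of 6 oligodendrocyte genes, Mog and Mag stayed at or under 0.395 CPM in all group means, and the sum of the list was 51.5 to 75.9 CPM in RVO, 77.1 to 81.4 CPM in control and 56.8 to 71.5 CPM in untreated pools. Of 3 astrocyte genes, 1 was higher in RVO than in untreated retinas, Gfap (3.38), which Mueller cells also make after injury. Of 5 microglia genes, 4 were lower and 0 higher. In RVO against untreated retinas, 24.6% of all genes were called lower and 27.4% higher. Of 6 pigment epithelium genes, 2 were lower and 0 higher, and their sum was 600 to 811 CPM in RVO and 823 to 863 CPM in untreated pools. The part of these cells in the values of the ganglion cell genes was not tested.

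For each of the 10 genes, the genes with the most similar pattern over the 9 samples were sought among 11987 genes with a mean of at least 5 CPM. Likeness was the root mean square difference of log2 CPM after the mean of each gene was subtracted. Near genes were Plxnc1 and B3galnt1 for Rbpms (0.05 and 0.06), Grin3a and Cadps for Pou4f1 (0.04 and 0.05), and Nwd2 and Pkp1 for Pou4f2 (0.08 and 0.09). They were Chrm3 and Drd1 for Thy1 (0.05 and 0.06), Prex2 for Slc17a6 (0.06), and Slitrk3 and Sparcl1 for Sncg (0.08 and 0.08). For the neurofilament genes they were Nrsn1 and Sprn for Nefl (0.04 and 0.05), B3gat1 and Dner for Nefm (0.05 and 0.09), and Ccdc28a and Dbndd2 for Nefh (0.05 and 0.06), and for Tubb3 they were Lrtm2 and Ephb6 (0.05 and 0.06). Within the 10 genes, the highest ranks were those of Nefl from Nefm (rank 12, 0.13) and of Pou4f1 from Sncg (rank 24, 0.13). Nefl and Thy1 were nearest to each other (0.13), at rank 39 from Nefl and rank 70 from Thy1. Pou4f1 was also the nearest of the 10 genes to Pou4f2 (rank 40) and Slc17a6 (rank 94), and Nefl was the nearest to Pou4f1 (rank 53). Nefh and Rbpms were nearest to each other (0.20), at rank 480 from Rbpms and rank 1233 from Nefh. Tubb3 had no close partner among the 10, with Nefh as the nearest at rank 5614 (0.52). Lrtm2, which was nearest to Tubb3, had 27.6 CPM in untreated, 43.5 CPM in control and 24.8 CPM in RVO means.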

How the data were processed

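RNA of 9 samples (3 RVO, 3 control, 3 untreated; pools of 6 retinas) was sequenced after poly-A selection with a strand-marking kit. The authors mapped reads with STAR 2.5.2b (submitters' processing notes), counted them per gene with featureCounts (Subread 1.5.1) and the Gencode vM11 annotation (GRCm38), and deposited raw counts per gene symbol without normalization. Of 48679 names, 92 were spike-ins with 0 counts, which were left out, and the number of sample columns not used was 0. Samples were grouped by their labels.

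Counts were analysed with edgeR 4.0.16 in R 4.3.3 (filterByExpr, TMM factors, quasi-likelihood test), fitting each pair of groups on its own. Adjustment over all genes tested followed Benjamini and Hochberg, and a gene was called at an adjusted p under 0.01. The same procedure was tested on simulated counts. Biological coefficients of variation were 13.8% (RVO and untreated), 7.49% (control and untreated) and 14.4% (RVO and control). Gene positions and exon lengths came from GENCODE vM21 (GRCm38), and promoter sequences from RefSeq. Replicates of 1 group differed by more than sampling noise (chi-square per degree of freedom 3.15 to 54.1). P-values set the difference between groups against the spread between pools, which is not the spread between single mice.

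The genes and gene lists were chosen with earlier results of these data known. From each list, the at most 4 most abundant genes tested are given with values. Any other gene named is said to be so, except Ecel1, Cd3e, Cd3g, Mog and Mag, which were also outside these 4. Of the marker lists, Sept4 was not matched. Single values of some genes of the lists and of the likeness ranking are not reported here. Fold changes are not shrunken. Alternatives were other normalizations and filters on low counts, DESeq2 1.42.0, a threshold of 0.05, 1 fit of the 3 groups together, a block for the replicate number and the removal of single samples. The gene lists without RVO replicate 2 were an alternative added after seeing the data.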

Additional observations from a re-analysis of the deposited data

How the results depend on the processing

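In RVO against untreated retinas, the number of ganglion cell genes called lower (9) was the same with each other normalization, filter, threshold, DESeq2, the fit of all 9 samples and the replicate block, and it was 7 to 10 when single pools were left out. In control against untreated retinas, 7 genes were called lower, 5 with library size as the only scaling and 2 in the fit of all 9 samples, and the 1 gene called higher was called higher in each alternative. With scaling by library size alone, the median over all genes tested was 0.22 (log2) for RVO and 0.19 for control against untreated retinas, where it was 0.01 for both with TMM. In RVO against control retinas, 1 gene was called lower. The count was 10 at an adjusted p under 0.05, 10 without a filter on low counts, 10 in the fit of all 9 samples and 9 with DESeq2, and it ranged from 0 to 10 when single pools were left out. At 0.05, 17.1% of all genes were called lower. The shares in the other filter, the fit of all 9 samples and DESeq2 are not reported here, so those counts describe the 10 genes alone. With the replicate number as a block, 0 of the 10 genes and 0 of all genes were called by edgeR (7227 at an unadjusted p under 0.05). Whether same-numbered RVO and control pools hold fellow eyes of the same mice is not given in the sources used here. These pools did not deviate together over 11987 genes (r = -0.25, -0.22 and 0.12). With 3 pools per group this cannot show that they are unpaired. The main test treated the pools as independent. The correlations with untreated pools were -0.08, 0.22 and 0.10 for RVO and 0.09, -0.05 and 0.21 for control pools. Directions that changed were those of differences that had not passed the test: Tubb3 in RVO against untreated retinas was 0.15 with library size alone, 0.0033 without a filter and -0.31 to 0.11 without single pools, Thy1 in control against untreated retinas was 0.076 with library size alone, and Nefm in control against untreated retinas was 0.15 with library size alone and -0.066 to 0.0075 without single pools. The cause was not tested. Without RVO replicate 2, 11 of the 12 other ganglion cell genes, 10 of 10 amacrine, 4 of 4 horizontal and 7 of 7 bipolar cell genes were called lower in RVO than in control retinas, against 1, 0, 0 and 1 with all pools. All-gene shares for that fit are not reported here, so these counts are not read as particular to the lists. In RVO against untreated retinas, leaving out this pool raised the number of all genes called from 8529 to 10491. Depth limited Pou4f2 most, with 61 to 192 counts per sample.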
